A study of Homo sapiens with 20 samples.

Results

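YCCEL1 and SNU719 are human gastric cancer cell lines that carry Epstein-Barr virus (EBV), and their transcriptomes were compared as they stood before any drug effect. The comparison rests on 4 of the 20 libraries of the series, chosen by their labels: 2 of YCCEL1 and 2 of SNU719, all from cells kept with the vehicle DMSO for 72 h. Both lines are labelled wild type, and both belong to the hypermethylated class known as CIMP+. The series also holds both lines after the DNA methyltransferase inhibitor decitabine (DCB) and 3 EBV− lines, AGS, HGC27 and SNU16, under both conditions. The labels name HGC27, as does the study's account of its heatmap, whereas its methods name MKN74 among the lines used. The identity of this line is therefore uncertain. The labels give poly(A)-selected RNA for the libraries, whereas the study's methods name a 3′ end kit. According to the labels YCCEL1 grew in EMEM and SNU719 in RPMI, each with 10% fetal bovine serum, whereas the study's methods give RPMI for every line. If the labels hold, medium and line cannot be told apart in any value below. Each line is a single tumour-derived line, and nothing says that its 2 libraries came from separate cultures, so that every p-value measures the spread between libraries, which may be technical.

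EBV-associated gastric cancer is a molecular class of gastric adenocarcinoma in which the virus persists in the tumour cells, largely in a latent form, and in which the host genome carries dense methylation of CpG sites. Promoters rich in CpG sites are commonly silent when densely methylated, and which promoters are affected differs from tumour to tumour. Gastric carcinomas can also keep gastric features, such as the mucins of the stomach surface and glands, or take on intestinal ones, such as brush border enzymes and intestinal cadherin. Transcripts of the virus itself were not analysed here.

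The values are normalized counts as the authors deposited them, and 27350 of the 60232 genes in the table had a sum above 10 over the 20 libraries and were tested. The totals were 9220564 and 9321014 in YCCEL1 and 8462643 and 8418655 in SNU719. Between 13085 and 13094 genes reached a value of 10 in the YCCEL1 libraries, and 14139 and 14144 did so in those of SNU719. The 2 libraries of a line correlated across genes at r = 0.980 in YCCEL1 and 0.976 in SNU719 on the log2 scale, genes not being independent replicates. Of the 8 markers fixed for glandular epithelium, 7 were abundant in all 4 libraries, with EPCAM at 7077 and 7029 in YCCEL1 and 13782 and 13684 in SNU719 and KRT8 at 21032 and 22203 in YCCEL1 and 43236 and 42284 in SNU719. The eighth, CLDN18, the tight junction protein of gastric epithelium, was near 0, at 0 and 1.48 in YCCEL1 and 1.58 and 4.31 in SNU719. Summed levels of the marker lists for B cells, T and NK cells, fibroblasts and endothelium stayed at or below 43 in every library. The myeloid list was low apart from LYZ, the lysozyme gene that gastric glands also express, at 44136 and 42903 in YCCEL1 and 32070 and 31186 in SNU719.

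More genes stood higher in SNU719 than in YCCEL1. A gene was called where limma's Benjamini-Hochberg adjusted p was below 0.05 and the absolute log2 difference of log2(value + 1), taken as YCCEL1 minus SNU719, exceeded 2. On this rule 2542 genes were called (9.29%), of which 739 were higher in YCCEL1 (2.7%) and 1803 higher in SNU719 (6.59%). On the adjusted p alone 3726 genes (13.6%) were higher in YCCEL1 and 4542 (16.6%) in SNU719, together 30.2% of those tested, and the median difference over all tested genes was 0. Set beside the same count for the other pairs of untreated lines, 2542 was the lowest of 10, with 2754 between YCCEL1 and AGS, 3077 between SNU719 and AGS, and 6262 between YCCEL1 and HGC27. These pairs share libraries and the counts were not tested against each other.

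**Figure D1:**
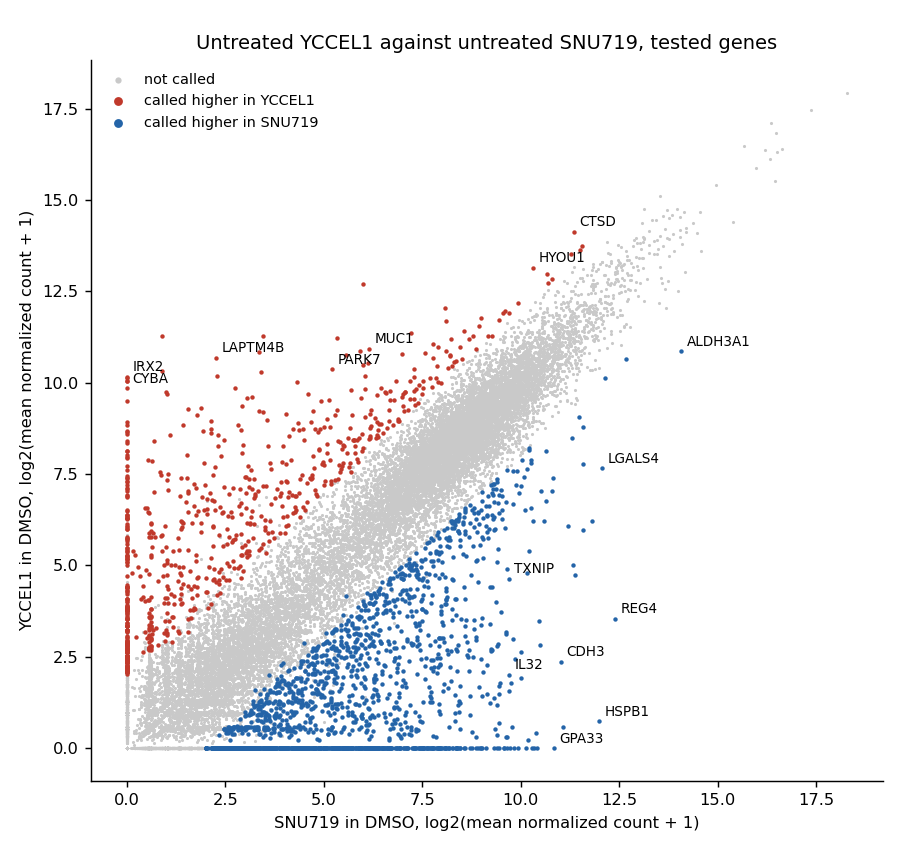
Mean level of each tested gene in untreated SNU719 (horizontal axis) and untreated YCCEL1 (vertical axis), both as log2(mean normalized count + 1) over 2 libraries, with called genes coloured and genes of the Y chromosome and the X-inactivation transcript left out. Points along the axes at 0 are genes listed at 0 in 1 line, and they are more numerous along the SNU719 axis.

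Among the genes with the smallest adjusted p on the SNU719 side, 9 of 12 were listed at 0 in both YCCEL1 libraries. PRNP, the gene of the cellular prion protein, was at 792 and 814 in SNU719 and 0 in both YCCEL1 libraries (adjusted p = 3.88e-17). CAVIN1, a coat protein of caveolae, was at 653 and 690.4 in SNU719 and 0 in both YCCEL1 libraries (adjusted p = 8.51e-17). CAMK2N1, an inhibitor of calcium/calmodulin-dependent kinase II, was at 937 and 757 in SNU719 and 0 in both YCCEL1 libraries, and SYT7, a calcium sensor of vesicle fusion, at 504 and 503 in SNU719 and 0 in both YCCEL1 libraries. The same on-or-off pattern held for KIFAP3, the adaptor subunit of kinesin-2, at 323 and 291 in SNU719 and 0 in both YCCEL1 libraries, and for TIMP2, an inhibitor of matrix metalloproteinases, at 218 and 208 in SNU719 and 0 in both YCCEL1 libraries. UNC5B, a netrin receptor, was at 130.1 and 145 in SNU719 and 0 in both YCCEL1 libraries, and the zinc finger gene ZNF300 at 149 and 153 in SNU719 and 0 in both YCCEL1 libraries. CTAG2, a cancer-testis antigen whose near-identical copy on the X chromosome makes its level uncertain, was at 625 and 651 in SNU719 and 0 in both YCCEL1 libraries. These genes were chosen by adjusted p, which favours close libraries within a line and a gap between lines, so that neither is further evidence.

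The other 3 genes of this group were detected in both lines. TXNIP, which binds and inhibits thioredoxin, was at 852 and 809 in SNU719 and 23.8 and 23.8 in YCCEL1 (difference −5.07 ± 0.067, adjusted p = 3.06e-15). IL32, a proinflammatory cytokine, was at 816 and 847 in SNU719 and 2.53 and 3.53 in YCCEL1 (difference −7.70 ± 0.13, adjusted p = 1.88e-14). REG4, a secreted lectin of enteroendocrine and intestinal-type cells, was at 5391 and 5356 in SNU719 and 10.1 and 11.2 in YCCEL1 (difference −8.85 ± 0.16, adjusted p = 5.34e-14) and was among the most abundant transcripts that separated the lines. TXNIP is the only one of the 3 that exceeded 20 in a YCCEL1 library.

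On the YCCEL1 side the leading genes again included several with no value in SNU719. CYBA, which encodes p22phox, the membrane subunit shared by several NADPH oxidases, was at 913 and 926 in YCCEL1 and 0 in both SNU719 libraries (adjusted p = 2.42e-16). ERRFI1, a feedback inhibitor of the EGF receptor, was at 1102 and 1144 in YCCEL1 and 0 in both SNU719 libraries, and DKK1, a secreted WNT antagonist, at 1079 and 1017 in YCCEL1 and 0 in both SNU719 libraries. APOBEC3B, a cytidine deaminase that mutates tumour DNA, was at 479.7 and 496 in YCCEL1 and 0 in both SNU719 libraries, and ZNF22 at 258 and 299 in YCCEL1 and 0 in both SNU719 libraries. These 5 genes were expressed in both YCCEL1 libraries at similar levels.

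PARK7, which encodes the redox-sensitive protein DJ-1 and is expressed in nearly all cells, was at 1361 and 1279 in YCCEL1 and 37.6 and 34.3 in SNU719 (difference 5.16 ± 0.069, adjusted p = 3.06e-15). FRAS1, an extracellular matrix protein, was at 1344 and 1193 in YCCEL1 and 0.908 and 0.824 in SNU719 (difference 9.41 ± 0.18, adjusted p = 7.80e-14), and LAPTM4B, a lysosomal membrane protein, at 1611 and 1680 in YCCEL1 and 4.98 and 2.63 in SNU719 (difference 8.46 ± 0.21, adjusted p = 1.15e-12). TOR4A, a torsin ATPase, was at 774 and 781 in YCCEL1 and 8.47 and 7.69 in SNU719, and FAM210B, a mitochondrial protein, at 1852 and 1741 in YCCEL1 and 186 and 192 in SNU719. Abundant genes with smaller differences completed the set. CTSD, the lysosomal protease cathepsin D, was at 17590 and 18510 in YCCEL1 and 2588 and 2622 in SNU719 (difference 2.79 ± 0.044, adjusted p = 1.66e-14), and HYOU1, a chaperone of the endoplasmic reticulum, at 8920 and 9278 in YCCEL1 and 1286 and 1242 in SNU719 (difference 2.85 ± 0.046, adjusted p = 1.72e-14).

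The most abundant called genes of YCCEL1 were, besides CTSD and HYOU1, GDF15, a stress-induced cytokine of the TGF-beta family, at 13626 and 13994 in YCCEL1 and 3139 and 2846 in SNU719, and LAMB1, a laminin chain, at 12120 and 13094 in YCCEL1 and 2885 and 2957 in SNU719, which fell short of the limit with libraries rescaled to equal totals (difference 1.97). HSPA9, the mitochondrial HSP70 chaperone, was at 11632 and 11957 in YCCEL1 and 2516 and 2419 in SNU719 (difference 2.26 ± 0.069, adjusted p = 1.16e-11), and SLC3A2, the heavy chain of several amino acid transporters, at 8003 and 8207 in YCCEL1 and 1594 and 1635 in SNU719 (difference 2.33 ± 0.063, adjusted p = 3.22e-12). The most abundant called genes of SNU719 were ALDH3A1, an aldehyde dehydrogenase, at 17202 and 17410 in SNU719 and 1816 and 1911 in YCCEL1 (difference −3.21 ± 0.086, adjusted p = 3.13e-12), and LGALS3BP, a secreted galectin ligand, at 6536 and 6577 in SNU719 and 1580 and 1636 in YCCEL1 (difference −2.03 ± 0.061, adjusted p = 9.46e-12). They were followed by REG4, by S100A14 at 4175 and 4848 in SNU719 and 1131 and 1089 in YCCEL1, whose difference of −2.02 fell short of the limit without the second library of either line (−1.99 and −1.91), and by LGALS4, galectin-4, at 4262 and 4280 in SNU719 and 172 and 229 in YCCEL1. HSPB1, the small heat shock protein HSP27, was at 4146 and 3921 in SNU719 and at 1.32 and 0 in YCCEL1 (difference −11.37 ± 0.26, adjusted p = 5.42e-13). The level of HSPB1 near 0 in YCCEL1 was not shared by AGS, HGC27 or SNU16, where the untreated means were 557, 2128 and 2489.

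Genes listed at 0 in both libraries of 1 line, called silent here, and well expressed in the other were counted separately. In YCCEL1 170 genes, 160 of them protein-coding, were listed at 0 in both libraries while both SNU719 libraries held 50 or more, and in SNU719 47 genes, 44 of them protein-coding, showed the opposite pattern. The values are a processed table, so that a 0 is a listing and not proof of absence. The most abundant genes silent in YCCEL1 were GPA33, the A33 antigen of intestinal epithelium, at 1820 and 1829 in the SNU719 libraries, NOX1 at 1307 and 1416, and IL2RG, the common gamma chain of cytokine receptors, at 1340 and 1247. They were followed by MEP1A, a brush border metalloprotease, at 1363 and 1149, NPDC1, a neural gene, at 1015 and 1224, and HOXA13, the most posterior gene of the HOXA cluster, at 994 and 960.3. The most abundant genes silent in SNU719 were IRX2, a homeobox gene, at 1178 and 1114 in the YCCEL1 libraries, ERRFI1, and MLPH, melanophilin, at 1032 and 1073, with DKK1, CYBA and THBS2, a thrombospondin, at 706 and 742. NOX1 is the catalytic subunit of a colonic NADPH oxidase that depends on p22phox. The line that expressed NOX1 was thus the line in which its partner gene CYBA was listed at 0, and the line that expressed CYBA listed NOX1 at 0.

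Some of these silent genes were expressed in all 3 other lines. Of the 170 genes at 0 in YCCEL1, 27 held 50 or more in every untreated library of AGS, HGC27 and SNU16, among them PRNP, CAVIN1, CAMK2N1, NPDC1, KIFAP3, SYT7 and ABCA3, a lipid transporter. ESD, esterase D, was one of them, at 739 and 666 in SNU719. Of the 47 genes at 0 in SNU719, 12 held 50 or more in all those libraries, including CYBA, ERRFI1, APOBEC3B, ZNF22, WNT3 and RAB32, a small GTPase. At the other end, 9 of the 170 were at 0 in all untreated libraries of the 3 other lines, as was 1 of the 47. DDX4, the germ cell RNA helicase, was one of the 9, at 295 and 362 in SNU719. In the separate DCB libraries 18 of the 170 were still at 0 in both YCCEL1 libraries, 43 reached 10 or more in both and 14 reached 50 or more. Of the 47, 3 were still at 0 in DCB-treated SNU719, 10 reached 10 and 4 reached 50. The median level of the 170 genes was 137.1 in untreated SNU719 and 4.84 in DCB-treated YCCEL1. That of the 47 was 158.9 in untreated YCCEL1 and 3.01 in DCB-treated SNU719. Both sets were chosen for values of 0 in DMSO, so that any other library of that line could only equal or exceed them. These counts and medians therefore do not measure an effect of DCB.

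The promoters of 5 genes that separate the lines are shown, since dense CpG content is where methylation is commonly tied to silencing and these genes span a wide range of it. The sequences are from RefSeq on GRCh38.p14, run from 250 bases before to 50 bases after the gene's start, and are written 5′ to 3′ in lower case with every CpG in capitals. The first 3 belong to genes that were low or silent in YCCEL1, and the last 2 to genes silent in SNU719.
HSPB1 promoter, chr7:76302423-76302722, plus strand: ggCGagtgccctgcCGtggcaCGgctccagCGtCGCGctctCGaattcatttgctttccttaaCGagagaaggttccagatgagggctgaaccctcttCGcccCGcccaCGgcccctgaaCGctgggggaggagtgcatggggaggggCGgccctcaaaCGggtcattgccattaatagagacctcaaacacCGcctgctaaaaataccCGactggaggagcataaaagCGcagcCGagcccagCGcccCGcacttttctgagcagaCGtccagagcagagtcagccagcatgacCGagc
HOXA13 promoter, chr7:27200042-27200341, minus strand: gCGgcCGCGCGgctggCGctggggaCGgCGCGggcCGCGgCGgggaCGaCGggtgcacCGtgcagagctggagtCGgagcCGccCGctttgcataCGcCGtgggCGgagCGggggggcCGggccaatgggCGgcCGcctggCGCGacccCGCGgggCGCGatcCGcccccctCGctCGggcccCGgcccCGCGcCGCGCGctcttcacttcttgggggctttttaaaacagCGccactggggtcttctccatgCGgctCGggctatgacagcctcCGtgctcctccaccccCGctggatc
REG4 promoter, chr1:119811411-119811710, minus strand: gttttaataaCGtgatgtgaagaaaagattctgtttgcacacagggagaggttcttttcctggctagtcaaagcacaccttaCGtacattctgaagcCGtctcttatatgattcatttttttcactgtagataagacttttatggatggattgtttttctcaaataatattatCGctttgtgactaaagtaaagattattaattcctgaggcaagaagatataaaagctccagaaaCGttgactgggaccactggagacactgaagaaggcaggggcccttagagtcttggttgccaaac
ERRFI1 promoter, chr1:8026260-8026559, minus strand: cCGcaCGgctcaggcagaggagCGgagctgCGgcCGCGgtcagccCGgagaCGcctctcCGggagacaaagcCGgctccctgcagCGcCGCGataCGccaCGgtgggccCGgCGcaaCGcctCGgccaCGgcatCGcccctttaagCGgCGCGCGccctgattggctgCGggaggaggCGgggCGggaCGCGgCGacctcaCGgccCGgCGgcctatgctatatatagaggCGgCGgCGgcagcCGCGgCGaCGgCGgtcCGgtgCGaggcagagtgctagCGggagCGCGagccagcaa
CYBA promoter, chr16:88651004-88651303, minus strand: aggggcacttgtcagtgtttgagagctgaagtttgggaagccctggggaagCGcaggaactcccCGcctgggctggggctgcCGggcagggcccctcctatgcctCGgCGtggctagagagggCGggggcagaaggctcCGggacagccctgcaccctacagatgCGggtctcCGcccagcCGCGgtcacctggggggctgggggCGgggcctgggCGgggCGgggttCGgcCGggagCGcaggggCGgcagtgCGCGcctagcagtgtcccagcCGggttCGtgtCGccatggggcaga

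These windows hold 22 CpG sites for HSPB1, 44 for HOXA13, 47 for ERRFI1 and 23 for CYBA, whereas that of REG4 holds 5. Counted in windows of the same length at the 5′ end of the gene on GRCh38, protein-coding genes at 50 or more in either line that were not called had a median of 24 CpG sites. The median was 19 for those called higher in YCCEL1 and 16 for those called higher in SNU719. It was 20 for genes silent in YCCEL1 and 19.5 for genes silent in SNU719. Windows with fewer than 10 CpG sites made up 16.1% of the genes not called, 32.4% and 36.1% of those called higher in YCCEL1 and in SNU719, and 28.9% and 29.5% of those silent in YCCEL1 and in SNU719. These shares are descriptions without a test, and the methylation of these windows was not analysed here.

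Gene lists for cell identity, signalling, immunity and metabolism were then counted, with the shares over all tested genes as the background. These shares were 2.7% called higher in YCCEL1, 6.59% higher in SNU719 and 9.29% in either direction. On the adjusted p alone they were 13.6% higher in YCCEL1 and 16.6% higher in SNU719.

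**Figure D2:**
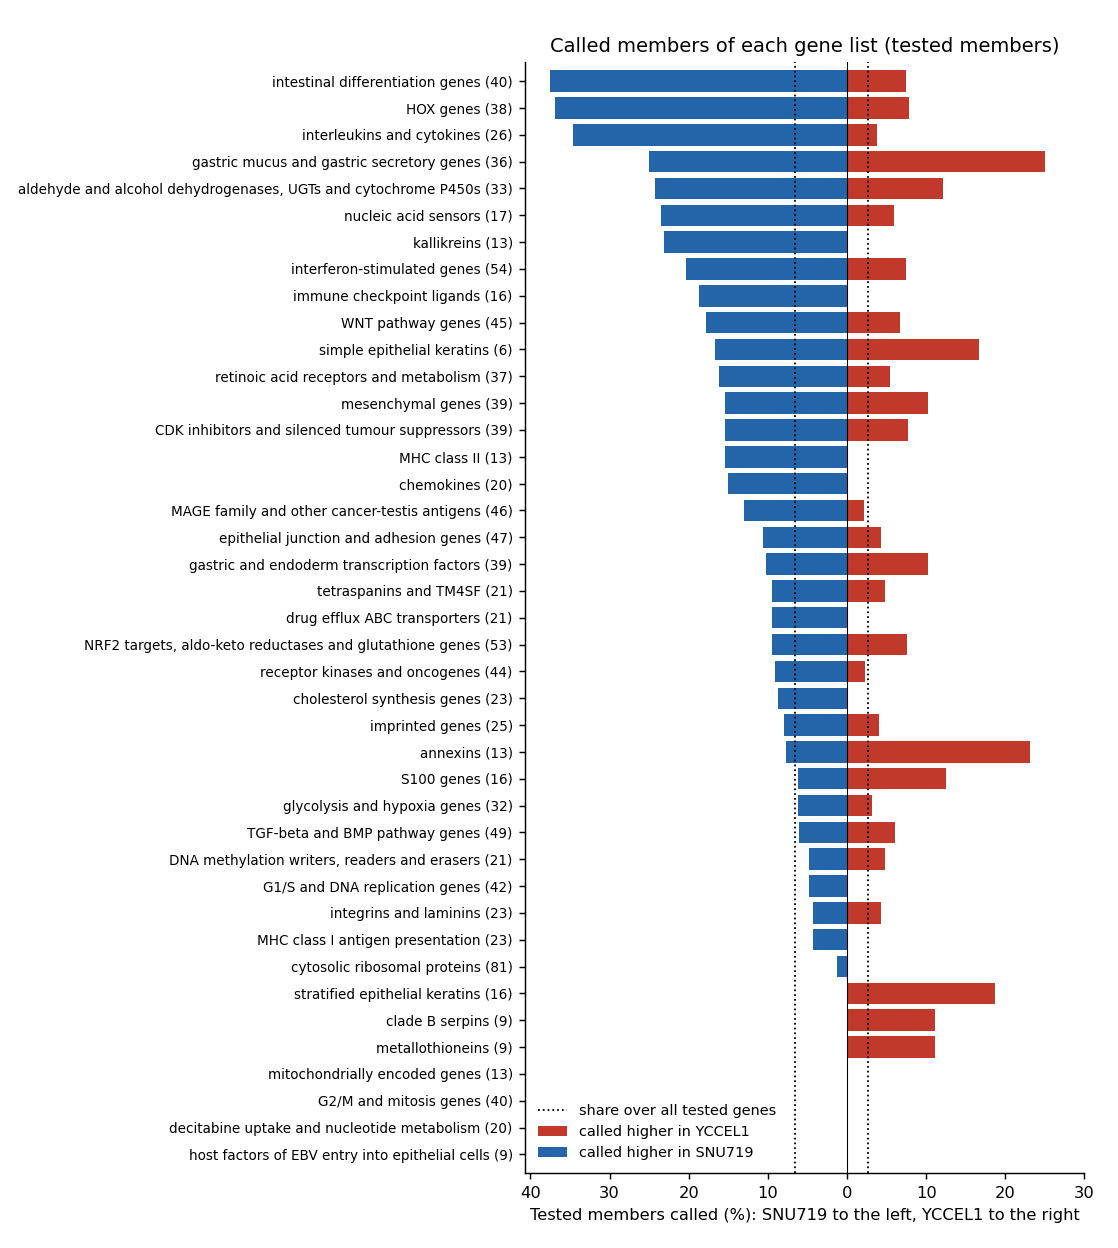
Share of the tested members of each gene list (number in brackets) that were called higher in untreated SNU719 (bars to the left) or in untreated YCCEL1 (bars to the right), in percent. Dotted lines mark the shares over all 27350 tested genes, 6.59% and 2.7%. The longest bars on the SNU719 side are those of intestinal genes, HOX genes and cytokines. The longest on the YCCEL1 side is that of gastric secretory genes, which have a bar of equal length on the SNU719 side.

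More intestinal genes were higher in SNU719 than in YCCEL1. Of 40 intestinal differentiation genes tested, 15 were called higher in SNU719 and 3 in YCCEL1, and the median difference was −1.39 against 0 over all genes. CDH17, the intestinal cadherin, was at 1203 and 1177 in SNU719 and 51.8 and 30.4 in YCCEL1 (difference −4.87 ± 0.25, adjusted p = 2.15e-09), and LGALS4 stood likewise higher in SNU719. The brush border genes MEP1A and MYO7B were at or near 0 in YCCEL1, MYO7B being at 1020 and 1289 in SNU719 and 0 and 0.332 in YCCEL1. PHGR1, a small protein of intestinal epithelium, was at 449.6 and 474 in SNU719 and 0 in both YCCEL1 libraries, and SI, sucrase-isomaltase, at 143 and 99.4 in SNU719 and 0 in both YCCEL1 libraries. ISX, an intestinal homeobox gene, was at 87.4 and 64.2 in SNU719 and 0 in both YCCEL1 libraries. The 3 genes in the other direction were CA2, carbonic anhydrase 2, at 816 and 833 in YCCEL1 and 28.8 and 17.8 in SNU719, SLC5A1 and OLFM4. SLC5A1, the sodium-glucose cotransporter, was at 418 and 391 in YCCEL1 and 23.6 and 31.7 in SNU719. OLFM4, an intestinal stem cell marker, was at 42.3 and 64.5 in YCCEL1 and 0 and 0.962 in SNU719.

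Gastric mucus and secretory genes were divided evenly by count, with 9 of 36 called higher in each line. The list also holds genes of intestinal-type cells, such as REG4 and MUC3A, so that these counts do not measure gastric identity. In YCCEL1 these included MUC1, an epithelial membrane mucin, at 2033 and 1867 in YCCEL1 and 62.8 and 76.6 in SNU719 (difference 4.79 ± 0.28, adjusted p = 1.08e-08), and CTSE, the gastric protease cathepsin E, at 595 and 538 in YCCEL1 and 24.3 and 6.71 in SNU719 (difference 5.34 ± 0.38, adjusted p = 6.47e-08). S100P, a calcium-binding protein, was at 1798 and 1842 in YCCEL1 and 11.7 and 6.73 in SNU719 (difference 7.52 ± 0.64, adjusted p = 4.93e-07). MUC6, the mucin of gastric glands, was at 109 and 46.1 in YCCEL1 and 0 in both SNU719 libraries, and LCN2, lipocalin 2, at 143 and 135 in YCCEL1 and 0 in both SNU719 libraries. ANXA10, a gastric annexin, was at 256 and 220.4 in YCCEL1 and 56.3 and 56.1 in SNU719 (difference 2.06 ± 0.63, adjusted p = 0.0232), a call lost without any 1 of the 4 libraries, with adjusted p between 0.0726 and 0.105. In SNU719 they included, besides REG4, SULT1C2, a sulfotransferase, at 2850 and 3261 in SNU719 and 88.7 and 34.4 in YCCEL1 (difference −5.76 ± 0.56, adjusted p = 1.98e-06). AGR3, a secretory pathway disulfide isomerase, was at 556 and 475 in SNU719 and 49.3 and 58.9 in YCCEL1. GCNT3, a mucin glycosyltransferase, was at 542 and 509 in SNU719 and 27.4 and 44.5 in YCCEL1. MUC3A, an intestinal membrane mucin, was at 141 and 97.6 in SNU719 and 0 in both YCCEL1 libraries, and TFF1, the trefoil factor of gastric surface cells, was at only 9.53 and 6.73 in SNU719 and 0 in both YCCEL1 libraries, a call lost with a pseudocount of 5. MUC5AC, the main surface mucin of the stomach, was low in both lines, at 3.53 and 8.93 in YCCEL1 and 0 and 3.85 in SNU719, and was called only in the fit without the second SNU719 library (adjusted p = 0.0102), which left SNU719 at 0.

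Of 39 transcription factors of the gastric and intestinal lineage 4 were called higher in each line, 20.5% in all against 9.29% of all tested genes, and 8 were listed at 0 in both lines. CDX2, the intestinal master regulator, overlapped between the lines at 272 and 206 in YCCEL1 and 191 and 282 in SNU719 (difference 0.031 ± 0.20, adjusted p = 1). HNF4A was at 859.7 and 849 in YCCEL1 and 1662 and 1763 in SNU719, GATA6 at 448 and 449 in YCCEL1 and 758 and 706 in SNU719 and SOX2 at 601 and 573 in YCCEL1 and 430.1 and 389 in SNU719, and none of them was called, although all 3 passed the adjusted p. Factors listed in only 1 line were NKX6-3, a gastric antral homeobox gene, at 233 and 208 in SNU719 and 0 in both YCCEL1 libraries, and GATA5, at 349 and 324 in YCCEL1 and 0 in both SNU719 libraries, together with IRX2. SPDEF, a factor of secretory cell maturation, was at 150.1 and 188 in YCCEL1 and 5.38 and 8.79 in SNU719 (difference 4.42 ± 0.42, adjusted p = 1.48e-06), and ONECUT2 was at 376 and 357 in SNU719 and 77.6 and 67.5 in YCCEL1 (difference −2.32 ± 0.17, adjusted p = 9.63e-08).

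**Figure D3:**
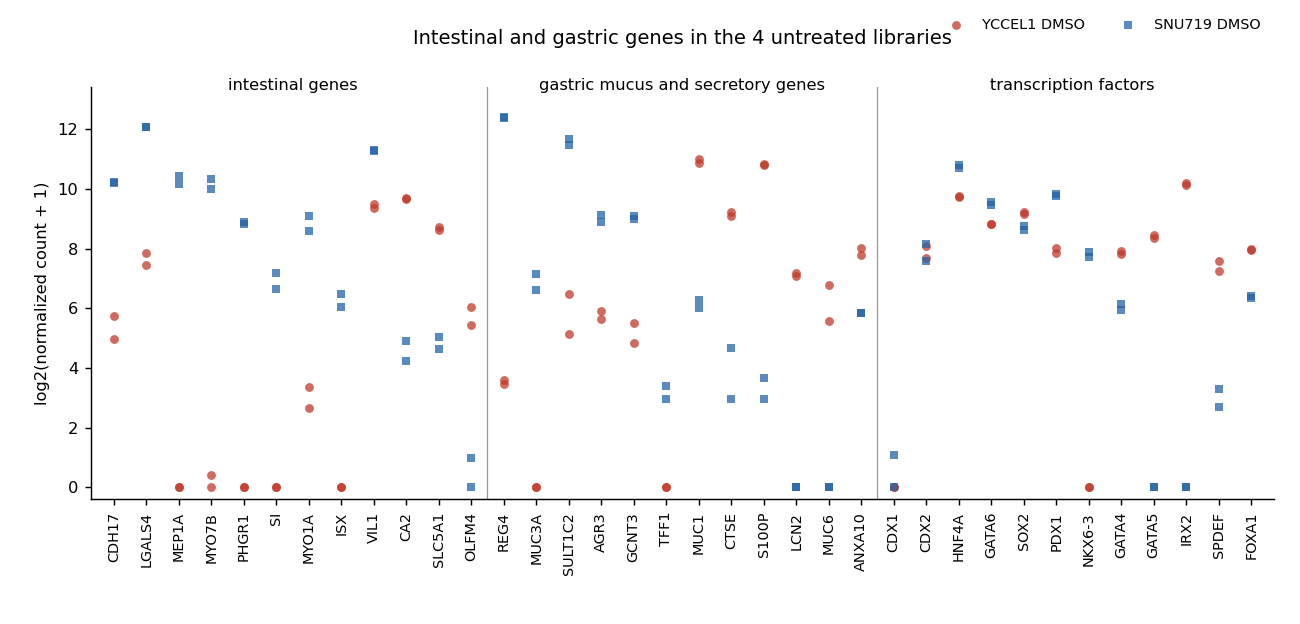
Normalized counts of intestinal genes, gastric mucus and secretory genes and transcription factors in the 4 untreated libraries, as log2(normalized count + 1), with circles for YCCEL1 and squares for SNU719. MEP1A, PHGR1, SI and ISX lie at 0 in both YCCEL1 libraries, GATA5 and IRX2 at 0 in both SNU719 libraries, and CDX2 overlaps between the lines.

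HOX genes, which set position along the body axis and are kept as clusters in the genome, differed between the lines in blocks, some of them interrupted. Of 38 tested, 14 were called higher in SNU719 and 3 in YCCEL1, with a median difference of −1.62. In the HOXA cluster SNU719 expressed HOXA13 at 994 and 960.3 and HOXA10 at 502 and 534, and YCCEL1 listed both at 0. HOXA11, which lies between them, was expressed in both lines and was not called. Its log2(mean + 1) was 5.18 in YCCEL1 and 6.90 in SNU719. HOXA3, an anterior gene of the same cluster, was at 369 and 381 in YCCEL1 and 158 and 147 in SNU719 and was not called (difference 1.29 ± 0.62, adjusted p = 0.145). In the HOXB cluster HOXB9 was at 864 and 896 in SNU719 and 0 and 0.993 in YCCEL1 (difference −9.29 ± 0.27, adjusted p = 5.82e-12). HOXB7 was at 272 and 269.5 in SNU719 and 0 in both YCCEL1 libraries, and HOXB6, at 93.5 and 84.5 in SNU719 and 0 in both YCCEL1 libraries, and HOXB8 and HOXB5 had no value in YCCEL1 either. The 3 genes in the other direction were HOXC4, at 121 and 112 in YCCEL1 and 2.84 and 2.58 in SNU719 (difference 4.99 ± 0.25, adjusted p = 2.14e-09), HOXC5, at 75 and 70.5 in YCCEL1 and 3.18 and 0 in SNU719, and HOXB13, at 15 and 9.93 in YCCEL1 and 0 in both SNU719 libraries. The HOXB13 call was lost with a pseudocount of 5. HOXC13 was at 80.5 and 84.6 in SNU719 and 0 in both YCCEL1 libraries, and HOXC9, between them in the HOXC cluster, overlapped between the lines at 97.6 and 111 in YCCEL1 and 86.3 and 102 in SNU719. Members of the HOXD cluster were at or near 0 in all 4 libraries. HOTTIP, the long noncoding RNA next to HOXA13 and named after its values were seen, was at 369.7 and 398 in SNU719 and 0 in both YCCEL1 libraries. Its gene overlaps HOXA13, and whether the counting used strand is not given in the sources used here.

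**Figure D4:**
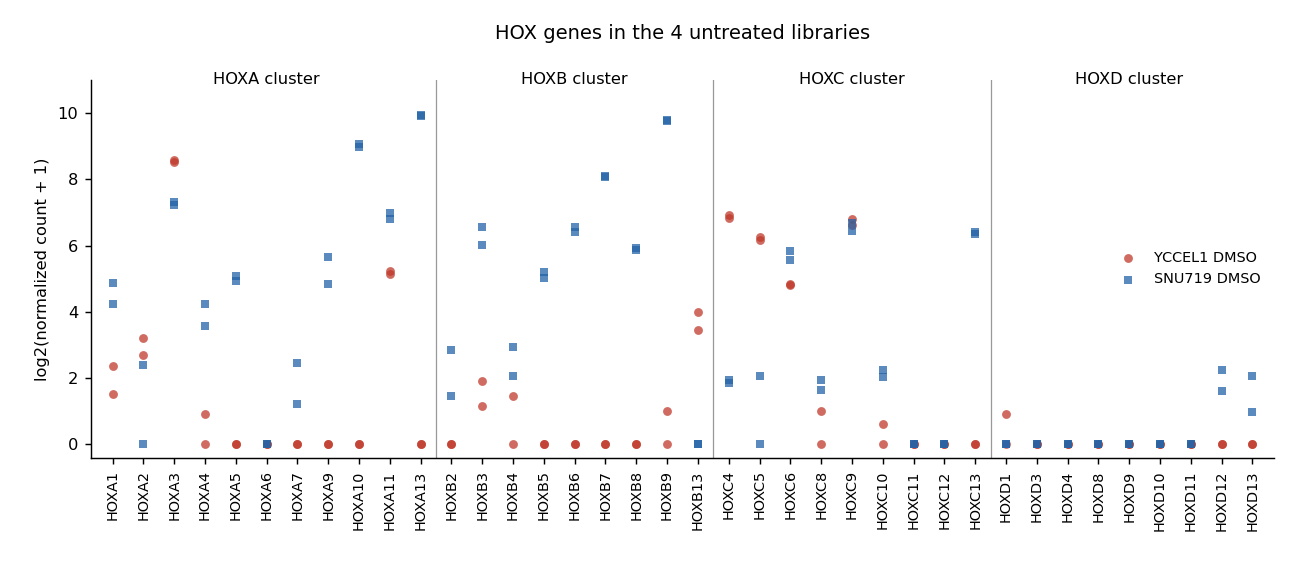
Normalized counts of the tested HOX genes in the 4 untreated libraries, as log2(normalized count + 1), ordered by cluster and by number within it, with circles for YCCEL1 and squares for SNU719. HOXA5 to HOXA10, HOXB5 to HOXB8 and HOXC13 lie at 0 in YCCEL1, apart from HOXA6, which is at 0 in both lines, whereas HOXC4 and HOXC5 are higher in YCCEL1.

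Simple keratins and adhesion genes were abundant in both lines, and stratified keratins were low apart from a few members. The simple keratin KRT80 was at 1122 and 1147 in YCCEL1 and 140.3 and 171 in SNU719 and KRT23 at 7.7 and 4.33 in YCCEL1 and 133 and 167 in SNU719, the only called genes of 6. Of 16 stratified keratins 3 were called, all higher in YCCEL1, and of these KRT6B was at 385 and 384 in YCCEL1 and 0 in both SNU719 libraries. KRT6A and KRT5 were low, the call of KRT5 was lost with a pseudocount of 5, and the near-identical KRT6 genes may share reads. Among 47 junction and adhesion genes 5 were called higher in SNU719 and 2 in YCCEL1, 14.9% in all against 9.29% of all tested genes. CDH3, P-cadherin, was at 2139 and 2009 in SNU719 and 5.98 and 2.28 in YCCEL1 (difference −8.76 ± 0.75, adjusted p = 4.72e-07), and the desmosomal cadherin DSC2 at 818 and 754 in SNU719 and 0 and 0.482 in YCCEL1 (difference −9.33 ± 0.44, adjusted p = 1.04e-09). DSG3, a desmoglein typical of stratified epithelium, was at 869 and 844 in SNU719 and 0.882 and 3.97 in YCCEL1, and CEACAM6, a carcinoembryonic antigen-related adhesion molecule, at 1854 and 1763 in SNU719 and 163 and 171 in YCCEL1. PROM1, the membrane protein CD133, was higher in YCCEL1, at 1270 and 1071 in YCCEL1 and 0 and 7.79 in SNU719 (difference 8.62 ± 1.07, adjusted p = 2.15e-05). CDH1, E-cadherin, was not called, at 3055 and 2680 in YCCEL1 and 5018 and 3881 in SNU719.

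Mesenchymal genes gave no single direction, with 4 of 39 called higher in YCCEL1 and 6 in SNU719 (25.6% in all). GSN, the actin-severing protein gelsolin, was at 868 and 851 in YCCEL1 and 91.2 and 95.5 in SNU719 (difference 3.19 ± 0.08, adjusted p = 1.46e-12), and CALD1, caldesmon, at 29.9 and 32.5 in YCCEL1 and 0 and 2.63 in SNU719. LGALS1, galectin-1, was at 65.6 and 64.2 in SNU719 and 6.22 and 5.25 in YCCEL1 (difference −3.29 ± 0.12, adjusted p = 4.98e-11), and COL4A2, a basement membrane collagen, at 73.3 and 65.3 in SNU719 and 4.96 and 4.02 in YCCEL1. VIM, vimentin, was low and overlapped between the lines, at 34.5 and 20.4 in YCCEL1 and 27.5 and 51 in SNU719. Of 23 integrins and laminins 8.7% were called, near the 9.29% of all tested genes. LAMB1 was called higher in YCCEL1 and ITGA5, the fibronectin receptor subunit, in SNU719, at 18.1 and 23.1 in SNU719 and 0 in both YCCEL1 libraries. None of 9 host factors of EBV entry into epithelial cells was called. EPHA2, an entry receptor, was at 1521 and 1657 in YCCEL1 and 1334 and 1327 in SNU719, NRP1, a coreceptor, at 774 and 861 in YCCEL1 and 376 and 476 in SNU719, and CR2, the B cell receptor of the virus, was listed at 0 in all 4 libraries.

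Interferon-stimulated genes went both ways, with 11 of 54 called higher in SNU719 and 4 in YCCEL1, and a median difference of −0.54. OAS1, which senses double-stranded RNA, was at 4319 and 4192 in YCCEL1 and 255 and 281 in SNU719 (difference 3.98 ± 0.23, adjusted p = 9.12e-09), and its neighbour OAS3 at 2314 and 2343 in YCCEL1 and 289.7 and 303 in SNU719 (difference 2.97 ± 0.15, adjusted p = 2.68e-09). PLSCR1, phospholipid scramblase 1, was at 1058 and 1077 in YCCEL1 and 133 and 233 in SNU719, and IFITM3, which blocks virus entry, at 3154 and 3611 in YCCEL1 and 654 and 739.9 in SNU719. On the SNU719 side IFIT5 was at 272 and 71.2 in SNU719 and 0.625 and 0.703 in YCCEL1, with a wide gap between its SNU719 libraries, and SAMD9 at 96.5 and 97.3 in SNU719 and 1.48 and 1.67 in YCCEL1 (difference −5.25 ± 0.20, adjusted p = 1.32e-10). IFI6 was at 87.8 and 93.2 in SNU719 and 5.63 and 2.11 in YCCEL1. Of 21 nucleic acid sensors 17 were tested, and only 19 of the symbols were found among the deposited genes. RIGI, TMEM173, TLR9 and AIM2 were not tested. Of the 17, 4 were called higher in SNU719 and 1 in YCCEL1, 29.4% in all against 9.29% of all tested genes. DHX58, a RIG-I-like receptor, was at 187 and 208 in SNU719 and 23.5 and 16.9 in YCCEL1. IFI16, a DNA sensor, was the only tested sensor called higher in YCCEL1. It was at 432 and 416 in YCCEL1 and 3.56 and 3.28 in SNU719 (difference 6.59 ± 0.49, adjusted p = 1.31e-07).

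Of 26 cytokines and their NF-kB regulators 9 were called higher in SNU719 and 1 in YCCEL1, and 5 were listed at 0 in both lines. IL33, an epithelial alarmin, was at 232 and 254 in SNU719 and 0 in both YCCEL1 libraries. TNFSF10, the death ligand TRAIL, was at 384 and 427 in SNU719 and 3.12 and 6.14 in YCCEL1 (difference −6.23 ± 0.53, adjusted p = 4.78e-07), and IL23A, a subunit of interleukin-23, at 183 and 194 in SNU719 and 4.89 and 2.57 in YCCEL1 (difference −5.37 ± 0.63, adjusted p = 1.30e-05). The NF-kB subunit NFKB2 was at 1366 and 932 in SNU719 and 243 and 157 in YCCEL1, and TNFAIP3, the feedback inhibitor A20, at 362 and 582 in SNU719 and 27.9 and 41.1 in YCCEL1. RELB was at 171 and 182 in SNU719 and 24.9 and 34.6 in YCCEL1, and BIRC3, an inhibitor of apoptosis, at 389 and 353 in SNU719 and 74.6 and 62.7 in YCCEL1. TRAF1, a signalling adaptor, was the gene called in the other direction, at 23.9 and 22.4 in YCCEL1 and 2.43 and 4.66 in SNU719. Of 20 chemokines 3 were called, all higher in SNU719, and CXCL5, a neutrophil attractant, led them at 1574 and 1634 in SNU719 and 121 and 93.3 in YCCEL1. Without the second SNU719 library the chemokine count was 5.

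MHC class I genes differed by small amounts in both directions. PSMB9, an immunoproteasome subunit, was the only member called of 23, at 117 and 102 in SNU719 and 5.36 and 3.1 in YCCEL1 (difference −4.44 ± 0.23, adjusted p = 2.51e-09). On the adjusted p alone 6 were higher in YCCEL1 and 12 in SNU719, against 13.6% and 16.6% of all tested genes. The class I members named here are all higher in SNU719. The summed level of the 23 genes was higher in YCCEL1, at 46949 and 47336, than in SNU719, at 38964 and 37887. B2M, the shared light chain, was at 5112 and 4909 in SNU719 and 2937 and 2484 in YCCEL1 (difference −0.89 ± 0.061, adjusted p = 5.19e-08). TAP1, the peptide transporter, was at 1010 and 941 in SNU719 and 374 and 365 in YCCEL1 (difference −1.40 ± 0.10, adjusted p = 9.70e-08). HLA genes share near-identical stretches, so that their levels are uncertain. Of 13 MHC class II genes 2 were called (15.4%, against 9.29% of all tested genes), both higher in SNU719. HLA-DRB1 was at 386 and 379.8 in SNU719 and 9.7 and 4.96 in YCCEL1. HLA-DMB was at 335 and 282 in SNU719 and 66.8 and 74.9 in YCCEL1. The HLA-DMB difference fell short of the limit without the first SNU719 library (difference −1.98). CIITA, the class II transactivator, was at 94.4 and 41.8 in YCCEL1 and 11.3 and 15.8 in SNU719 and was not called. Of 16 immune checkpoint ligands 3 were called higher in SNU719, and of these TNFSF9, the 4-1BB ligand, was at 236 and 302 in SNU719 and 0 in both YCCEL1 libraries and LGALS9, galectin-9, at 773 and 995 in SNU719 and 201 and 178 in YCCEL1.

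WNT pathway genes were called in both directions, 8 of 45 higher in SNU719 and 3 in YCCEL1 (24.4% in all). The receptor FZD4 was at 307 and 309.7 in YCCEL1 and 14.8 and 14.4 in SNU719 (difference 4.31 ± 0.22, adjusted p = 2.81e-09), and the ligand WNT3 at 165 and 179.7 in YCCEL1 and 0 in both SNU719 libraries, with DKK1 as the third. The receptor FZD1 was at 304 and 261 in SNU719 and 0 in both YCCEL1 libraries, and NOTUM, a secreted enzyme that inactivates WNT ligands, at 239 and 256 in SNU719 and 0 in both YCCEL1 libraries. ASCL2, a WNT target of intestinal stem cells, was at 340.0 and 320.2 in SNU719 and 0 in both YCCEL1 libraries. AXIN2, a general readout of the pathway, passed the adjusted p without being called, at 3200 and 3263 in YCCEL1 and 1545 and 1523 in SNU719 (difference 1.07 ± 0.12, adjusted p = 6.27e-06). In the TGF-beta and BMP list 3 of 49 were called in each direction, 12.2% in all against 9.29% of all tested genes. TGFB1 was at 305 and 294 in SNU719 and 1.18 and 4.01 in YCCEL1 (difference −6.51 ± 0.59, adjusted p = 9.21e-07), whereas TGFB2 was at 94.7 and 95.1 in YCCEL1 and 0.841 and 0 in SNU719 (difference 6.14 ± 0.62, adjusted p = 2.97e-06), so that different ligands were expressed in the 2 lines.

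Of 44 receptor kinases and oncogenes 11.4% were called, against 9.29% of all tested genes. FGFR2, a growth factor receptor, was the only one of them called higher in YCCEL1, at 1105 and 1011 in YCCEL1 and 173 and 118 in SNU719 (difference 2.88 ± 0.23, adjusted p = 2.36e-07). The genes called higher in SNU719 were the cyclin CCND2, at 761 and 752 in SNU719 and 0 in both YCCEL1 libraries, and AREG, an EGF receptor ligand, at 115 and 126 in SNU719 and 0 in both YCCEL1 libraries, with MYCL and BTC. MYCL was at 43.1 and 59.2 in SNU719 and 0 in both YCCEL1 libraries. BTC, another EGF receptor ligand, was at 45.3 and 39.5 in SNU719 and 6.65 and 2.5 in YCCEL1. CCND1, the cyclin most used by epithelial cells, was at 5397 and 5509 in YCCEL1 and 2812 and 2738 in SNU719 (difference 0.97 ± 0.037, adjusted p = 1.11e-10), and MYC, MET and ERBB2 were not called. Of 39 CDK inhibitors and commonly silenced tumour suppressors 3 were called higher in YCCEL1 and 6 in SNU719 (23.1% in all). CDKN2B, the inhibitor p15, was at 201 and 221 in SNU719 and 0 in both YCCEL1 libraries, and RASSF2, a RAS effector, at 254 and 229 in SNU719 and 0 and 2.03 in YCCEL1 (difference −7.12 ± 0.59, adjusted p = 3.89e-07). CDKN2A, the inhibitor p16, was at 1.05 and 0 in YCCEL1 and at 0 in both SNU719 libraries. DAPK1, a death-associated kinase, was at 56.1 and 52.8 in YCCEL1 and 0 and 1.64 in SNU719, and ZNF331 at 42 and 60.7 in SNU719 and 3.47 and 0 in YCCEL1.

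The list of DNA methylation genes also held the cytidine deaminase APOBEC3B. Of its 21 tested members 1 was called in each line, a share (9.52%) near that of all tested genes. DNMT3A, a de novo methyltransferase, was called higher in SNU719, at 1204 and 893 in SNU719 and 241 and 231 in YCCEL1 (difference −2.13 ± 0.59, adjusted p = 0.0127), and APOBEC3B in YCCEL1. The DNMT3A call was lost without the first or second YCCEL1 library or the first SNU719 library, with adjusted p = 0.0536, 0.0613 and 0.0843. DNMT1, the maintenance enzyme, was at 1257 and 927 in YCCEL1 and 951 and 966 in SNU719 (difference 0.17 ± 0.22, adjusted p = 0.667), and DNMT3B at 101 and 108 in YCCEL1 and 80.4 and 97.6 in SNU719 (difference 0.23 ± 0.18, adjusted p = 0.411), and neither passed the test. None of 20 genes of decitabine uptake and nucleotide metabolism was called. DCK, the kinase that activates decitabine, was at 241 and 259 in YCCEL1 and 384 and 326 in SNU719 (difference −0.50 ± 0.22, adjusted p = 0.107), and SLC29A1, a nucleoside transporter, at 259 and 241 in YCCEL1 and 483 and 463 in SNU719 (difference −0.92 ± 0.17, adjusted p = 0.000598). SLC29A2, its paralogue, was at 425 and 438 in YCCEL1 and 144 and 141 in SNU719 (difference 1.59 ± 0.10, adjusted p = 2.77e-08), and CDA, which inactivates decitabine, was at 1.1 and 3.99 in SNU719 and 0 in both YCCEL1 libraries. CDA was not called, but was with a pseudocount of 0.5 (adjusted p = 0.00358) or without the first SNU719 library (adjusted p = 0.00408).

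The genes that the study's text names were compared in the same way. Of 21, INPP4B, a phosphoinositide phosphatase, was called higher in YCCEL1, at 356 and 334 in YCCEL1 and 50.4 and 57 in SNU719 (difference 2.66 ± 0.30, adjusted p = 8.03e-06). DDX4 and CHFR, a mitotic checkpoint ligase, were called higher in SNU719, CHFR at 22 and 7.99 in SNU719 and 0.57 and 2.98 in YCCEL1 (difference −2.53 ± 0.59, adjusted p = 0.00434). The CHFR call was lost without the first YCCEL1 library (adjusted p = 0.0637) or the first SNU719 library (adjusted p = 0.0658). RASSF1, a tumour suppressor with a CpG island promoter, passed the adjusted p without being called, at 245 and 262 in YCCEL1 and 95.9 and 96 in SNU719 (difference 1.39 ± 0.12, adjusted p = 4.57e-07). The retinoic acid receptor genes RARA and RARG were expressed in both lines. RARA was at 189 and 164 in YCCEL1 and 233 and 209 in SNU719 (difference −0.33 ± 0.15, adjusted p = 0.125). RARG was at 293 and 292 in YCCEL1 and 218 and 175 in SNU719 (difference 0.58 ± 0.10, adjusted p = 0.000464). RARB, SFRP1 and INHBB were listed at 0 in all 4 libraries. HOPX, CDKN1C, NKD1 and MSX1 stayed below 12 in every library, and NKD1 alone was called without the second SNU719 library (difference −3.02, adjusted p = 0.0049). This list was chosen by the study on these samples and is not independent evidence of a direction.

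Other members of the retinoic acid list differed more than the receptors, with 6 of 37 called higher in SNU719 and 2 in YCCEL1. CRABP2, the cytosolic carrier of retinoic acid, was at 319 and 313 in YCCEL1 and 4.25 and 9.18 in SNU719 (difference 5.44 ± 0.43, adjusted p = 2.13e-07). The alcohol dehydrogenase ADH4 was at 64.7 and 83.3 in SNU719 and 0.829 and 0.933 in YCCEL1 and ADH1A at 100.3 and 149 in SNU719 and 3.44 and 1.01 in YCCEL1, while ADH1C was higher in YCCEL1, at 30 and 32.9 in YCCEL1 and 0 and 1.82 in SNU719. CYP26B1, which degrades retinoic acid, was at 27 and 19.6 in SNU719 and 0.718 and 0 in YCCEL1. ALDH1A2, a retinoic acid synthesis enzyme, was called but uneven, at 6.94 and 51.3 in SNU719 and 0 in both YCCEL1 libraries. Its call was lost without either YCCEL1 library or the second SNU719 library, with adjusted p = 0.0975, 0.0994 and 0.232.

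Detoxifying enzymes divided between the lines. In the list of aldehyde and alcohol dehydrogenases, UGTs and cytochrome P450s 8 of 33 were called higher in SNU719 and 4 in YCCEL1, with a median difference of −0.70. CYP3A5 was at 1537 and 1640 in SNU719 and 259 and 304 in YCCEL1 (difference −2.49 ± 0.17, adjusted p = 5.39e-08) and UGT2B7 at 47.8 and 61.2 in SNU719 and 0 in both YCCEL1 libraries. UGT1A10, whose exons are shared with the other UGT1A genes, was at 482 and 437 in YCCEL1 and 0 in both SNU719 libraries. Among 53 NRF2 targets, aldo-keto reductases and glutathione genes 5 were called higher in SNU719 and 4 in YCCEL1 (17.0% in all). AKR1C1, which shares reads with other AKR1C genes, was at 454 and 334 in SNU719 and 6.08 and 6.74 in YCCEL1 (difference −5.72 ± 0.43, adjusted p = 1.25e-07), and AKR1B1, aldose reductase, at 223 and 246 in YCCEL1 and 19.5 and 14.1 in SNU719 (difference 3.74 ± 0.16, adjusted p = 2.98e-10). ME1, malic enzyme, was at 128 and 116 in YCCEL1 and 4.24 and 5.77 in SNU719, and GSTA1 at 74.5 and 86.2 in SNU719 and 0 in both YCCEL1 libraries. NFE2L2, the gene of NRF2, passed the adjusted p without being called, at 1787 and 1704 in YCCEL1 and 1215 and 1216 in SNU719 (difference 0.52 ± 0.10, adjusted p = 0.00121). Of 21 drug efflux transporters 2 were called (9.52%), a share near the 9.29% of all tested genes, and both were higher in SNU719. They were ABCA3, at 355 and 293 in SNU719 and 0 in both YCCEL1 libraries, and ABCC2, which exports conjugates, at 2500 and 2653 in SNU719 and 48.3 and 14.7 in YCCEL1 (difference −6.53 ± 0.51, adjusted p = 2.02e-07).

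Of 23 cholesterol synthesis and regulation genes 2 were called (8.7%), both higher in SNU719, a share near that of all tested genes. On the adjusted p alone 14 were higher in SNU719 and 1 in YCCEL1, against 16.6% and 13.6% of all tested genes. INSIG1, which holds back sterol synthesis, was at 588 and 575 in SNU719 and 65 and 60.2 in YCCEL1 (difference −3.20 ± 0.16, adjusted p = 2.50e-09) and was called. Of 32 glycolysis and hypoxia genes 9.38% were called, again a share near that of all tested genes. ENO2, the neuronal enolase, was at 727 and 677 in SNU719 and 1.71 and 2.78 in YCCEL1 (difference −7.78 ± 0.50, adjusted p = 2.39e-08), and PDK1, which restrains pyruvate oxidation, at 351 and 344 in YCCEL1 and 55.8 and 57 in SNU719 (difference 2.60 ± 0.22, adjusted p = 3.68e-07). HK1, hexokinase 1, was called higher in SNU719 but was uneven between libraries, at 252 and 675 in SNU719 and 54.9 and 12.5 in YCCEL1.

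Cancer-testis antigens were sparse in both lines, 21 of 46 tested being listed at 0 in all 4 libraries. Of those called, 6 were higher in SNU719 and 1, MAGEA2, in YCCEL1, at 16.6 and 24 in YCCEL1 and 3.95 and 0.896 in SNU719. Besides CTAG2, SNU719 expressed SSX2, at 428 and 322 in SNU719 and 0 in both YCCEL1 libraries, and GAGE2A, at 187 and 194 in SNU719 and 0 in both YCCEL1 libraries. MAGEA3 was at 716 and 746 in SNU719 and 91.3 and 88.9 in YCCEL1 (difference −3.01 ± 0.39, adjusted p = 3.33e-05), and DDX43, a helicase of the testis, at 83.1 and 79.1 in SNU719 and 0 in both YCCEL1 libraries. The MAGEA, GAGE and SSX genes have near-identical copies, and their levels are uncertain. Among 25 imprinted genes H19, a noncoding RNA, was at 524 and 681 in YCCEL1 and 4.57 and 13.9 in SNU719 (difference 6.04 ± 0.39, adjusted p = 2.92e-08). MKRN3 was at 175 and 145 in SNU719 and 10 and 8.22 in YCCEL1 (difference −3.99 ± 0.23, adjusted p = 6.89e-09), and TP73 at 22.4 and 23.2 in SNU719 and 2.44 and 0 in YCCEL1. Of 13 annexins ANXA5, ANXA9 and ANXA10 were called higher in YCCEL1 and ANXA13 in SNU719. ANXA5 was at 1974 and 2062 in YCCEL1 and 203 and 268 in SNU719 (difference 3.11 ± 0.18, adjusted p = 7.16e-09), and ANXA13 at 678 and 659.7 in SNU719 and 33.7 and 32.8 in YCCEL1 (difference −4.29 ± 0.61, adjusted p = 7.76e-05). The tetraspanin-like TM4SF4 was at 110.1 and 124 in SNU719 and 0 and 0.629 in YCCEL1, and the kallikrein KLK1 at 47.3 and 55.7 in SNU719 and 1.76 and 0 in YCCEL1. The metallothionein MT1E was at 92.6 and 62.7 in YCCEL1 and 0 in both SNU719 libraries, and the serpin SERPINB9 at 44.1 and 28.8 in YCCEL1 and 10.6 and 3.85 in SNU719. The SERPINB9 call was lost without the first YCCEL1 library (adjusted p = 0.122) or the second SNU719 library (adjusted p = 0.176).

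None of 40 G2/M and mitosis genes was called, and on the adjusted p alone 4 were higher in YCCEL1 and 15 in SNU719. Over all tested genes the shares on the adjusted p alone were 13.6% for YCCEL1 and 16.6% for SNU719. MKI67, the Ki-67 antigen, was at 1057 and 883 in YCCEL1 and 1682 and 1770 in SNU719 (difference −0.84 ± 0.21, adjusted p = 0.00684). Of 42 G1/S and DNA replication genes 2 were called, both higher in SNU719: POLE2, a subunit of polymerase epsilon, at 188 and 170.2 in SNU719 and 11.7 and 34.8 in YCCEL1, and RFC3, a clamp loader subunit, at 380.1 and 378 in SNU719 and 97.7 and 89 in YCCEL1 (difference −2.01 ± 0.094, adjusted p = 8.76e-10). Without the second YCCEL1 library the RFC3 difference was −1.94, short of the limit. Cytosolic ribosomal protein genes differed as a block by a small amount. On the adjusted p alone 71 of 81 were higher in YCCEL1 and 5 in SNU719, with a median difference of 0.63, and their summed level was 832563 and 854919 in YCCEL1 and 532999 and 532708 in SNU719. With libraries rescaled to equal medians the counts were 68 and 5, and with equal totals 66 and 7. RPL39L, a paralogue with restricted expression, was the only one called, at 63.5 and 70.9 in SNU719 and 0 in both YCCEL1 libraries. None of 13 mitochondrially encoded genes was called, and 5 passed the adjusted p in each direction.

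Neighbouring genes often differed in the same direction. Among 11738 genes with a mean of 50 or more in either line, the median difference was 0.56 on chromosome 11, where 78.1% of genes were above 0, and −0.64 on chromosome 13, where 22.4% were. Chromosome 16 had a median of −0.43, chromosome 21 of 0.38 and chromosome 8 of 0.33, against 0.0047 over all of these genes. The DCB libraries, which are separate, gave 0.50, −0.68, −0.39, 0.36 and 0.34 for the same 5 chromosomes. In windows of about 50 consecutive genes the highest median, 1.02, fell between RAB38 and SIK2 on chromosome 11, and the lowest, −0.93, between CTTNBP2NL and NBPF25P on chromosome 1. DNA copy number was not analysed here, and its part in these medians was not tested.

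**Figure D5:**
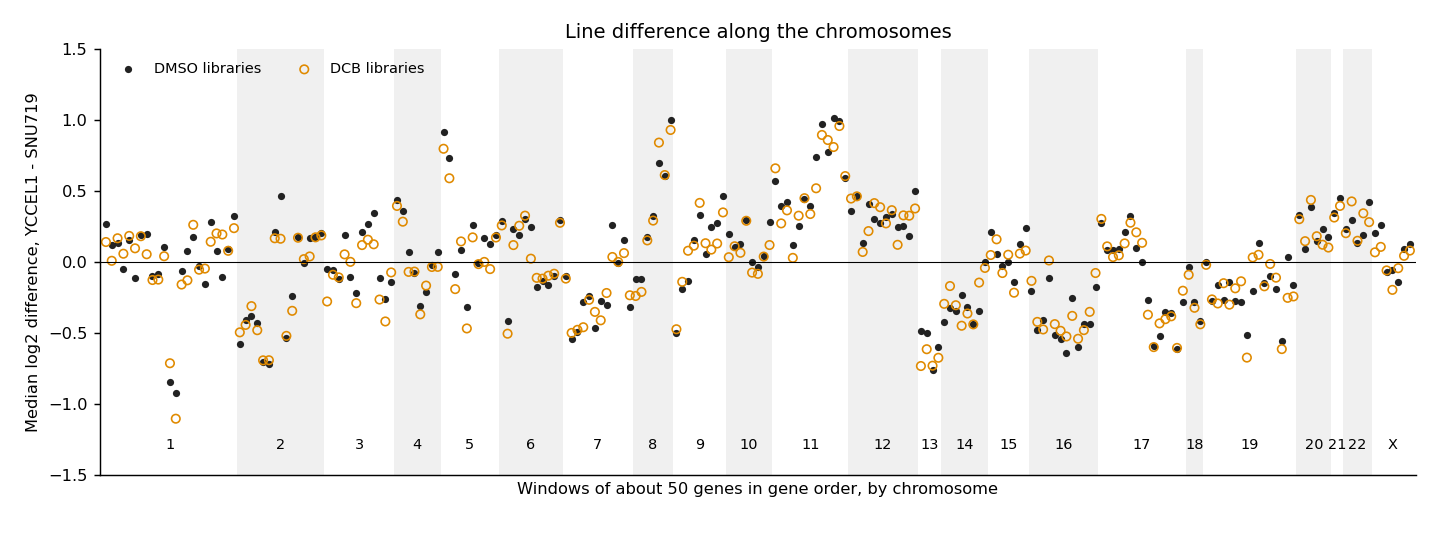
Median log2 difference, YCCEL1 minus SNU719, of windows of about 50 consecutive genes with a mean of 50 or more in either line, ordered along each chromosome, in the DMSO libraries (filled points) and in the separate DCB libraries (open points). Chromosome 11 lies above 0 and chromosome 13 below it in both sets of libraries.

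At a smaller scale, 27 runs of at least 3 consecutive genes of this set were called in the same direction; the runs and the genes named from them were picked after the values were seen. The longest held 8 genes of the zinc finger cluster on chromosome 19, all higher in SNU719, among them ZNF91, a repressor of retroelements, at 281 and 280.1 in SNU719 and 2.01 and 2.26 in YCCEL1, and ZNF676, at 67.7 and 74.2 in SNU719 and 0 in both YCCEL1 libraries. HOXB3, HOXB6, HOXB7, HOXB8 and HOXB9 formed a run with TTLL6. On chromosome 1 REG4 lay in a run with PHGDH, the first enzyme of serine synthesis, at 751 and 592 in SNU719 and 0 and 0.583 in YCCEL1. In it was also NOTCH2, at 368 and 531 in SNU719 and 58.2 and 73.4 in YCCEL1. TRIM31, TRIM10 and TRIM15 on chromosome 6 stood higher in SNU719, and TRIM15 was at 348 and 315 in SNU719 and 3.46 and 3.23 in YCCEL1. PARK7 and ERRFI1 are neighbours on chromosome 1, at 7954291 to 7985505 and 8004404 to 8026309 on GRCh38, and both were low or silent in SNU719. UTS2, nearby, was also listed at 0 in SNU719 and was at 47.2 and 23.6 in YCCEL1. However, TNFRSF9, between UTS2 and PARK7, was low in both lines and not called. It was at 5.70 and 3.67 in YCCEL1 and 3.88 and 9.77 in SNU719. PER3, which overlaps the end of UTS2, was at 502 and 359 in YCCEL1 and 380.0 and 384 in SNU719, and was not called. SLC45A1, between ERRFI1 and RERE, was listed at 0 in both lines. RERE, on the far side, was higher in YCCEL1 on the adjusted p alone, at 929.7 and 1127 in YCCEL1 and 596 and 264 in SNU719 (difference 1.37 ± 0.37, adjusted p = 0.0118).

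The difference between the lines was also measured in the DCB libraries. These share no sample with the DMSO libraries but come from cells with a drug that acts on methylation. The contrasts of both treatments came from the same fit, with a shared estimate of the spread of each gene. Their calls are therefore not independent. In the DCB libraries 2537 genes were called (9.28%), 912 higher in YCCEL1 (3.33%) and 1625 higher in SNU719 (5.94%). Of the 2542 genes called in DMSO, 2400 had the same sign in DCB (94.4%). The share with the same sign over all tested genes was not counted. Across all tested genes the differences in DMSO and in DCB correlated at r = 0.674. Of the 2542 genes, 1406 were called the same way, which is 55.3% of the DMSO calls and 55.4% of the DCB calls. By direction, 397 of the 739 genes higher in YCCEL1 and 1009 of the 1803 higher in SNU719 were called again. All of PRNP, CAVIN1, TXNIP, IL32 and REG4 were called again, although each had values in DCB-treated YCCEL1. PRNP was at 111 and 111 there and at 925 and 971 in DCB-treated SNU719, REG4 at 369.6 and 339 and 13024 and 13533, and HSPB1 at 107 and 139.6 and 4441 and 4630. Genes that stayed at or near 0 in DCB-treated YCCEL1 included GPA33, at 0.913 and 0.788, and NOX1, at 4.73 and 4.08. In DCB-treated SNU719 ERRFI1 was at 0 and 0.72 and APOBEC3B at 0.817 and 0.762. The line difference itself differed between DCB and DMSO in 964 genes (3.52%), and 481 of these were among the 2542.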

How the data were processed

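RNA was sequenced from 5 gastric cancer lines under DMSO or DCB, with 2 libraries per group. Per the labels, libraries came from poly(A)-selected RNA, whereas the study's methods name a 3′ end kit. GRCh37, STAR 2.5.2b, DESeq2 1.14.1 and featureCounts 1.5.1 are named in the submitters' processing notes. The coordinates of the deposited table are those of GRCh38: 92.6% of 60064 genes have the same start and end as in GENCODE 44. The values were deposited by the authors as normalized estimated counts, recorded here as signal since they are not whole, and depth in reads is unknown. Genes with near-identical copies may share reads.

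Here limma 3.58.1 in R 4.3.3 (lmFit, eBayes with trend) was run on log2(value + 1), in 10 groups over all 20 libraries with 10 residual degrees of freedom. Differences are given ± the standard error (SE) of limma, with Benjamini-Hochberg adjusted p over the 27350 genes whose values summed to more than 10. No difference is given for a gene listed at 0 in both libraries of a line, although list medians count them and then rest partly on the pseudocount. The genes in the text are protein-coding and not Y-linked where this rule chose them: the 12 of smallest adjusted p in each direction, the 6 most abundant silent genes and the 6 most abundant called genes of each line, up to 6 members of each list, and genes that the study's text names. Outside this rule, and named after their values were seen, are AGR3, AXIN2, BIRC3, CA2, CDA, CDH17, CDKN2A, CDX2, CIITA, CR2, CTSE, CYP3A5, DCK, DNMT1, DNMT3B, ERBB2, ESD, FZD4, GATA6, GCNT3, HNF4A, HOTTIP, HOXA11, HOXA3, HOXA5, HOXA6, HOXB13, HOXB3, HOXB5, HOXB8, HOXC4, HOXC5, HOXC9, IFITM3, MET, MKI67, MUC1, MUC5AC, MYC, NFKB2, NOTCH2, OAS3, OLFM4, ONECUT2, PER3, PHGDH, PLSCR1, RAB32, RELB, RERE, SLC45A1, SLC5A1, SOX2, TFF1, TNFRSF9, TRAF1, TRIM10, TRIM15, TRIM31, TTLL6, UTS2, VIM, ZNF676 and ZNF91. Some genes and 1 list that the rule names are not reported here. The comparison, the lists and the rules were chosen with earlier results of these data known. A RefSeq promoter table matched fewer than 80% of the called and of the silent genes, so the planned count of CpG sites from it was void and windows from the GRCh38 genome, chosen after seeing the data, replaced it. The fit was tested on simulated data. Alternatives varied the pseudocount, filter, log2 limit, libraries in the fit, scaling, trend and block. Plots were made in Python 3.11.15 with matplotlib 3.10.9.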

Additional observations from a re-analysis of the deposited data

Results flagged for a closer look

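In 5 genes the lines were called in opposite directions in DMSO and in DCB, and the change in the line difference itself passed the test (limma, adjusted over all genes). CEACAM5, the carcinoembryonic antigen gene, had means of 105 in YCCEL1 and 22.7 in SNU719 in DMSO and of 331 and 1654 in DCB, a change in the log2 difference of −4.48 (adjusted p = 9.79e-05). IGFN1, a gene of muscle, was at a mean of 20.1 in YCCEL1 and 0 in SNU719 in DMSO and at 9.52 and 72.0 in DCB, and the value of its change, −7.03, depends on the pseudocount (adjusted p = 0.000337). FUT7, a fucosyltransferase, was at 0.441 and 6.49 in DMSO and at 11.3 and 2.30 in DCB (change 4.51, adjusted p = 0.00631). KRT16P2, a keratin pseudogene that may share reads with other keratins, was at 5.23 and 0.324 in DMSO and at 4.46 and 27.6 in DCB (change −4.62, adjusted p = 0.00125). The noncoding gene AC092296.2 was at 1.29 and 39.1 in DMSO and at 184 and 25.4 in DCB (change 6.95, adjusted p = 0.00012). In all, the line difference changed between DMSO and DCB for 481 of the genes called in DMSO. These contrasts reuse the DMSO libraries, and groups of 2 libraries were too small to look for single outlying libraries.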

How the results depend on the processing

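More genes were called higher in SNU719 than in YCCEL1 under each alternative run. With a pseudocount of 5 in place of 1 the counts were 487 higher in YCCEL1 and 1088 higher in SNU719 in DMSO, and 483 and 919 in DCB, since a larger pseudocount shrinks the differences of low genes. With only genes of a mean of 10 or more, 1199 were higher in SNU719. A log2 limit of 1 gave 1819 and 3047, and no limit 3726 and 4542. Leaving out each replicate in turn gave 721 to 789 genes higher in YCCEL1 and 1676 to 1774 higher in SNU719 in DMSO, and 845 to 961 and 1541 to 1607 in DCB. The 4 untreated libraries alone gave 543 and 1306. Rescaling to equal medians shifted all differences by −0.06 and gave 711 and 1845, and rescaling to equal totals, added after seeing the data, shifted them by −0.14 and gave 676 and 1903. Libraries with the same replicate number did not deviate together (r = 0.023 in DMSO and −0.032 in DCB, across genes), so that they share only a number, and a replicate block gave 737 and 1791 genes in DMSO and 911 and 1625 in DCB. With a limit of 20 in place of 50, the silent genes numbered 270 in YCCEL1 and 68 in SNU719. For the genes in the text no direction of a called gene reversed. In the fit of the 4 libraries alone ADH1C, ALDH1A2, BTC, CALD1, CHFR, HK1, HOXC5, KRT6A, MAGEA2, POLE2, PROM1, SERPINB9, TP73, TRAF1 and ZNF331 lost their call, with adjusted p between 0.0503 and 0.181. With a pseudocount of 5 ALDH1A2, ANXA10, CHFR, HOXB13, KRT5, MAGEA2, RFC3, SERPINB9, TFF1 and TRAF1 lost theirs, with the 10 DMSO libraries alone ALDH1A2, DNMT3A and SERPINB9, with a pseudocount of 0.5 or equal medians ANXA10, and with equal totals ANXA10 and LAMB1. With 2 libraries per line, of unknown depth in reads, small differences in low genes cannot be told from the spread between libraries.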
